A study of Homo sapiens with 4 samples.

Results

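A set of 9 genes used as markers of liver cancer stem cells and of bipotent liver progenitors was examined in a hepatocellular carcinoma line and a cholangiocarcinoma line. They were found by name in the deposited gene table, which listed all 9 of them among 58174 genes, each under a single identifier. The members were CD24, EPCAM, PROM1, CD44, THY1 and ANPEP at the cell surface, the cytosolic enzymes ALDH1A1 and ALDH1A3, and the transcription factor SOX9. There were 4 groups of 1 library each: LM3 cells (hepatocellular carcinoma) with si-FENDRR, LM3 cells with si-NC, RBE cells (intrahepatic cholangiocarcinoma) with si-FENDRR, and RBE cells with si-NC. si-FENDRR is a small interfering RNA directed at the long noncoding RNA FENDRR, and si-NC is its negative control. Each was delivered with a Lipofectamine reagent, and RNA was taken 48 h later from the cultured cells. Each line is a single established line, so a difference between LM3 and RBE is a difference between those lines and not between the tumour types. The study asked what FENDRR does to gene expression in primary liver cancer.

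Values are FPKM, in which fragment numbers are divided by gene length and by the size of the library, so levels can be set side by side between genes. The files give no read counts and the depth is unknown, so no counting error can be attached to a value. Each library had between 13437 and 13682 genes at 1 FPKM or more. The targeted RNA gave no check of the transfection, because FENDRR was listed at 0 in all 4 libraries, and the libraries are compared by their labels. Over all tested genes, 32.3% were called higher in LM3 and 26.4% higher in RBE by limma. Of 10 hepatocyte markers, 5 of the 8 that could be tested were higher in LM3 (62.5%) and 2 in RBE (25.0%), and 4 of the 8 entered the test through a single line. ALB (albumin) was at 35.7 and 33.3 FPKM with si-FENDRR and si-NC in LM3, against 0.251 and 0.270 in RBE, while SERPINA1, a plasma protease inhibitor, stood at 0.096 and 0.089 against 56.8 and 82.5 FPKM. Of 8 cholangiocyte markers, 1 of the 7 tested was higher in LM3 (14.3%) and 5 in RBE (71.4%), and 2 of the 7 entered through a single line. The members EPCAM and SOX9 are among these 5. CFTR, a defining channel of bile duct cells, was listed at 0 in LM3 and reached 0.021 and 0.023 FPKM in RBE. The 5 leukocyte markers summed to between 0.120 and 0.286 FPKM per library, with CD3E listed at 0 in all 4. Of 5 endothelial markers 1 could be tested, PECAM1, which entered through the LM3 libraries alone. It was higher there, at 3.1 and 3.9 FPKM against 0.40 and 0.41 in RBE.

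Tumour-initiating cells of the liver have been isolated by surface proteins that are shared with hepatic progenitors. CD24 is a small glycoprotein on a lipid anchor, EPCAM is an adhesion molecule of epithelia and bile ducts, and PROM1 (CD133) is a pentaspan protein of membrane protrusions. CD44 binds hyaluronan in the matrix, THY1 (CD90) is a lipid-anchored protein also found on mesenchymal cells, and ANPEP (CD13) is a zinc aminopeptidase. ALDH1A1 and ALDH1A3 oxidise retinaldehyde to retinoic acid, and their activity is a common way to sort stem-like tumour cells. SOX9 is a transcription factor of bile ducts and of liver progenitors.

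All 9 members are protein-coding genes, on human build hg38. ALDH1A1 lies on chromosome 9 (ENSG00000165092, 72900662 to 73080442, minus strand) and ALDH1A3 on chromosome 15 (ENSG00000184254, 100877714 to 100916626, plus strand). ANPEP is also on chromosome 15 (ENSG00000166825, 89784889 to 89815401, minus strand), and CD24 is on chromosome 6 (ENSG00000272398, 106969831 to 106975627, minus strand). CD44 (ENSG00000026508, 35138870 to 35232402, plus strand) and THY1 (ENSG00000154096, 119417378 to 119424985, minus strand) are on chromosome 11. EPCAM is on chromosome 2 (ENSG00000119888, 47345158 to 47387601, plus strand), PROM1 on chromosome 4 (ENSG00000007062, 15963076 to 16084378, minus strand) and SOX9 on chromosome 17 (ENSG00000125398, 72121020 to 72126420, plus strand). The number of transcripts annotated per gene in GENCODE release 29 ran from 2 for SOX9 to 39 for CD44, and the gene-level values do not separate them.

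The stretches just upstream of transcription starts are shown for CD24, ALDH1A1 and ANPEP, the members called between the lines whose upstream window in the RefSeq table (GRCh38.p14) lies wholly or mostly outside annotated exons. The first listed start is used where there are several. RefSeq windows were found for 6 of the 9 members. Each line runs 5′ to 3′ on the gene's own strand, ends at or just before the start, and carries in capitals every GC box (GGGCGG) or CCAAT box (CCAAT) found on either strand. No TATA box (TATAAA) was present in these windows.
CD24, chr6:106975628-106975877: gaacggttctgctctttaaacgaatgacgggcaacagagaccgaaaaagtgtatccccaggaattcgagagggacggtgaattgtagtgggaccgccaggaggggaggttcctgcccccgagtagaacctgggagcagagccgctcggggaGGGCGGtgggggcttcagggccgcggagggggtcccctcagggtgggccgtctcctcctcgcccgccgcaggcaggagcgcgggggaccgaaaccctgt
ALDH1A1, chr9:72953057-72953303: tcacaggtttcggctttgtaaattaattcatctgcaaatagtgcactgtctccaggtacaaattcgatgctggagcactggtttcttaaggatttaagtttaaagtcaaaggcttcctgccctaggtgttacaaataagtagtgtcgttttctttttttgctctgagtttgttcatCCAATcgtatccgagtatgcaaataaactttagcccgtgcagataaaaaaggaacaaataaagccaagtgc
ANPEP, chr15:89814865-89815102: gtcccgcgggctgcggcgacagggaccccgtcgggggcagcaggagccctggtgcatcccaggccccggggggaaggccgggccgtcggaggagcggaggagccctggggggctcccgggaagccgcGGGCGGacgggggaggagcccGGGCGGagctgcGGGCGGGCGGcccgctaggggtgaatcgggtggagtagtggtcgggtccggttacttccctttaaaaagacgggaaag

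The upstream windows of the ALDH1A pair differed in base composition. Over the full 250 bases, ALDH1A1 had a GC content of 38.4% with 6 CpG dinucleotides, and ALDH1A3 had 82.4% with 38. The window of ALDH1A3 lies inside an annotated exon and is not printed. CD24 had 65.6% with 20 CpG, and ANPEP had 74.0% with 26. The median over 35116 windows was 58.0% and 11 CpG. A CCAAT box was present in the windows of ALDH1A1 and ALDH1A3 and in 32.0% of all windows. A GC box was present in those of CD24, ALDH1A3 and ANPEP and in 42.6% of all windows, and TATAAA was present in 10.7%. The 4 GC boxes of ANPEP include a pair that overlap.

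Of the 9 markers, 6 differed between the lines, 5 of them with the lower level in LM3. CD24, EPCAM and ALDH1A3 were near or at 0 in LM3 and abundant in RBE, SOX9 and ANPEP were lower in LM3 but present in both lines, and ALDH1A1 was higher in LM3. CD44 was high in all 4 libraries. PROM1 and THY1 stayed under 1 FPKM everywhere. Differences were tested with limma on log2(FPKM + 1) over the 15930 genes with at least 1 FPKM in any library, with cell line and transfection as terms. The adjusted p therefore rests in part on how equally far LM3 and RBE stood apart under si-FENDRR and si-NC. It rests also on a variance that limma borrows from all tested genes of similar level. ANPEP, for example, differed by -0.09 between the transfections in each line, yet had an SE of 0.12. Neither line has a repeat culture of the same transfection, so no p measures the spread between cultures. Of all tested genes, 32.3% were called higher in LM3 and 26.4% higher in RBE. Of the 7 tested members, 1 was called higher in LM3 and 5 higher in RBE. CD24, EPCAM and ALDH1A3 entered the test only through the RBE libraries, so their place among the called genes follows in part from that filter.

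**Figure D1:**
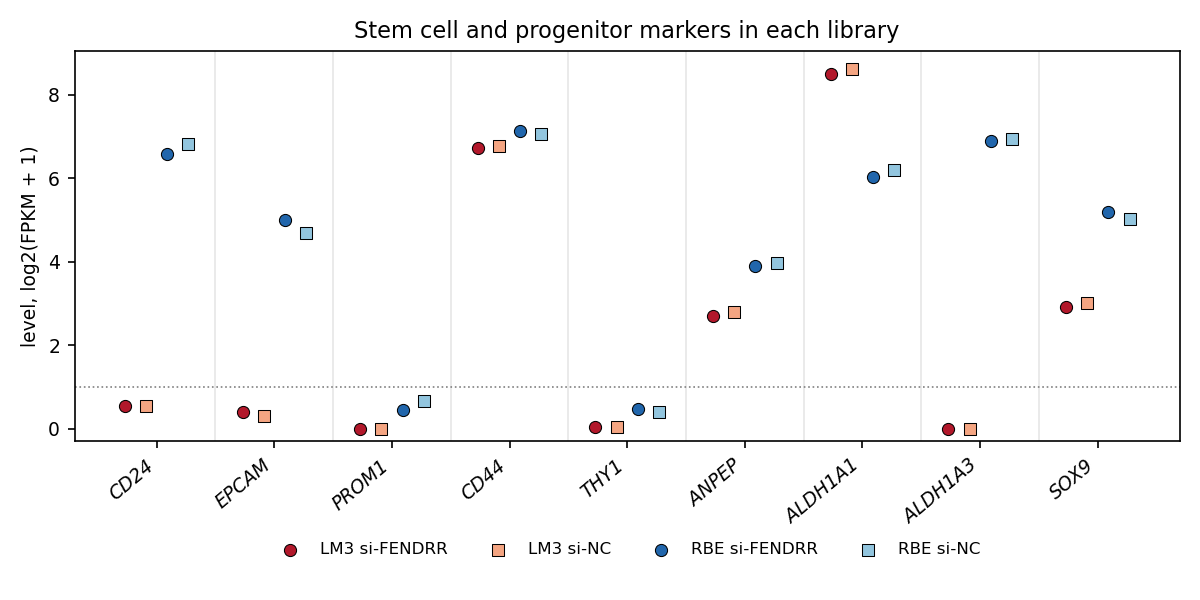
Level of each marker as log2(FPKM + 1) on the vertical axis, with 1 point per library: LM3 si-FENDRR, LM3 si-NC, RBE si-FENDRR and RBE si-NC from left to right within each gene. The dotted line marks an FPKM of 1. The 2 points of a line lie close together for every gene, and CD24, EPCAM and ALDH1A3 lie under the dotted line in LM3 and far above it in RBE.

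Among the surface proteins, CD24 was at 0.473 FPKM in LM3 with si-FENDRR and 0.468 with si-NC, against 95.0 and 111.8 FPKM in RBE with si-FENDRR and si-NC. The difference on the log2 scale, LM3 minus RBE as in all later comparisons of the lines, was -6.15 ± 0.13 (SE; adjusted p = 0.000584 by limma). Between 8.4% and 8.6% of tested genes had a lower level than CD24 in the LM3 libraries, and between 95.9% and 96.7% in the RBE libraries. CD24 also has processed copies elsewhere in the genome with which reads can be shared, and CD24P1 and CD24P2 were listed at 0 in all 4 libraries. Copies on chromosome Y were left out of this search, so reads shared with them were not looked at. In these bulk libraries, fewer cells with a transcript and less of it per cell cannot be told apart.

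EPCAM was at 0.318 FPKM with si-FENDRR and 0.236 with si-NC in LM3, where RBE had 31.2 and 24.9 FPKM under the same transfections (-4.50 ± 0.14 SE on the log2 scale; limma, adjusted p = 0.000663). As with CD24, both RBE libraries lay far above both LM3 libraries. The share of all tested genes with such a separation was not counted. PROM1 was listed at 0 in both LM3 libraries, and in RBE it was at 0.368 FPKM with si-FENDRR and 0.586 with si-NC. PROM1 did not pass the filter, and 166 of its exonic bases are shared on the same strand with FGFBP2, which was listed at 0 throughout.

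CD44 was the most evenly expressed member. It was at 105.4 FPKM with si-FENDRR and 108.8 with si-NC in LM3, where RBE had 139.8 and 133.0 FPKM under the same transfections. All 4 libraries placed it above at least 96.3% of tested genes. The LM3 values lay below the RBE values, and the difference did not pass the threshold (-0.35 ± 0.11 SE on the log2 scale; limma, adjusted p = 0.0534). It passed with median-of-ratios scaling (-0.44, adjusted p = 0.0264) and in the fit without the transfection term (adjusted p = 0.0253). The antisense gene CD44-AS1, which shares 84 exonic bases with CD44, did not exceed 0.279 FPKM.

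THY1 was at 0.038 FPKM with si-FENDRR and 0.036 with si-NC in LM3, where RBE had 0.384 and 0.333 FPKM under the same transfections. No library reached 1 FPKM, and THY1 was not tested. Because THY1 also marks fibroblasts, a list of 7 fibroblast genes was read beside it. These summed to 30.4 and 27.0 FPKM in LM3 with si-FENDRR and si-NC, of which LUM, a matrix proteoglycan, gave 28.4 and 24.9. They summed to 9.08 and 7.94 FPKM in RBE, where LUM was listed at 0 and the growth factor receptor PDGFRA was at 4.11 and 4.08. The defining collagen gene COL1A2 was at most 0.00795 FPKM in any library. LUM alone set the higher sum in LM3: of the 5 fibroblast genes tested, 2 were called higher in LM3 (LUM and COL3A1) and 3 higher in RBE (COL1A1, PDGFRA and PDGFRB), and all 5 entered the test through a single line. The part of these genes in the THY1 values was not tested.

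ANPEP was at 5.56 FPKM with si-FENDRR and 5.98 with si-NC in LM3, where RBE had 13.8 and 14.8 FPKM under the same transfections. The difference was the smallest among the called members (-1.18 ± 0.12 SE on the log2 scale; limma, adjusted p = 0.00394). SOX9 was at 6.59 and 7.13 FPKM in LM3, against 35.6 and 31.8 FPKM in RBE (-2.14 ± 0.13 SE, adjusted p = 0.00167). For each of these genes both LM3 libraries lay below both RBE libraries, and the share of all tested genes with such a separation was not counted. SOX9-AS1, transcribed from the other strand of the same region, was at 0.040 FPKM and a listed 0 in LM3, against 1.12 and 1.37 FPKM in RBE, and shares no exonic bases with SOX9. Whether the libraries kept strand information is not stated in the labels or headers.

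ALDH1A1 was the member with the highest level in LM3, at 360.6 FPKM with si-FENDRR and 392.1 with si-NC. In RBE it was at 64.4 and 72.5 FPKM (2.44 ± 0.10 SE on the log2 scale; limma, adjusted p = 0.000964), LM3 being 5.5-fold higher on the mean of its libraries. ALDH1A3, its close relative, was listed at 0 in both LM3 libraries and was at 117.9 and 122.5 FPKM in RBE (adjusted p = 0.000584 by limma). No fold is given against a listed 0. The antisense gene AC015712.2 shares 1585 exonic bases with ALDH1A3 and went with it, listed at 0 in LM3 but with 3.85 and 3.24 FPKM in RBE. The part of strand assignment in these values was not tested.

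Summed over the 9 members, the libraries were alike: 479.0 FPKM in LM3 with si-FENDRR, 514.7 in LM3 with si-NC, 498.5 in RBE with si-FENDRR and 512.2 in RBE with si-NC. The makeup of that sum was not. In LM3, ALDH1A1 gave 75.3% and 76.2% and CD44 gave 22.0% and 21.1%, which left little for the other members. In RBE, CD44 gave 28.0% and 26.0%, ALDH1A3 23.7% and 23.9%, CD24 19.1% and 21.8%, and ALDH1A1 12.9% and 14.2%. The order of levels in both LM3 libraries was ALDH1A1, CD44, SOX9, ANPEP, CD24, EPCAM and THY1, with PROM1 and ALDH1A3 at 0. SOX9 and ANPEP were close in this order, as were CD24 and EPCAM, but the values of neither pair overlapped between the LM3 libraries. In both RBE libraries it was CD44, ALDH1A3, CD24, ALDH1A1, SOX9, EPCAM and ANPEP, followed by PROM1 and THY1, whose order differed between the libraries. There, the levels of ALDH1A3 and CD24 and those of SOX9 and EPCAM lay close to each other, with gaps similar in size to the differences of CD24 and of EPCAM between the libraries of the line.

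ALDH1A1 and ALDH1A3 differed between the lines in opposite directions, and the aldehyde dehydrogenase family, counted with them, was divided as well. Of 19 family members, 16 were tested. Of these, 7 were called higher in LM3 (43.8%, against 32.3% of all tested genes), ALDH1A1 among them. Another 5 were called higher in RBE (31.2%, against 26.4%), ALDH1A3 among them. Of the 16, 2 entered the test through a single line, ALDH1A3 through RBE and ALDH1L2 through LM3. The family's median log2 difference between LM3 and RBE was -0.13, against 0.09 over all tested genes. The summed level of the family was 658.3 FPKM in LM3 with si-FENDRR and 663.6 with si-NC, and 399.2 and 403.0 FPKM in RBE. ALDH1A1 supplied 54.8% and 59.1% of that sum in LM3 and 16.1% and 18.0% in RBE, and ALDH1A3 supplied 29.5% and 30.4% in RBE.

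ALDH3A1, which oxidises aromatic and lipid-derived aldehydes, went the way of ALDH1A1, at 66.2 and 74.1 FPKM in the LM3 libraries, against 2.94 and 2.69 in those of RBE (4.22 ± 0.13 SE on the log2 scale; limma, adjusted p = 0.00068). ALDH1A2, the third retinaldehyde dehydrogenase, was at 1.63 and 1.87 FPKM in the LM3 libraries, against 4.82 and 3.77 in those of RBE (-0.94 ± 0.17 SE, adjusted p = 0.0139). The fatty aldehyde dehydrogenase ALDH3A2 was at 41.4 and 40.1 FPKM in the LM3 libraries, against 43.4 and 43.1 in those of RBE and was not called (adjusted p = 0.526). Taken as the sum of its 3 members, the ALDH1A group was at 362.3 and 394.0 FPKM in the LM3 libraries, against 187.1 and 198.8 in those of RBE.

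**Figure D2:**
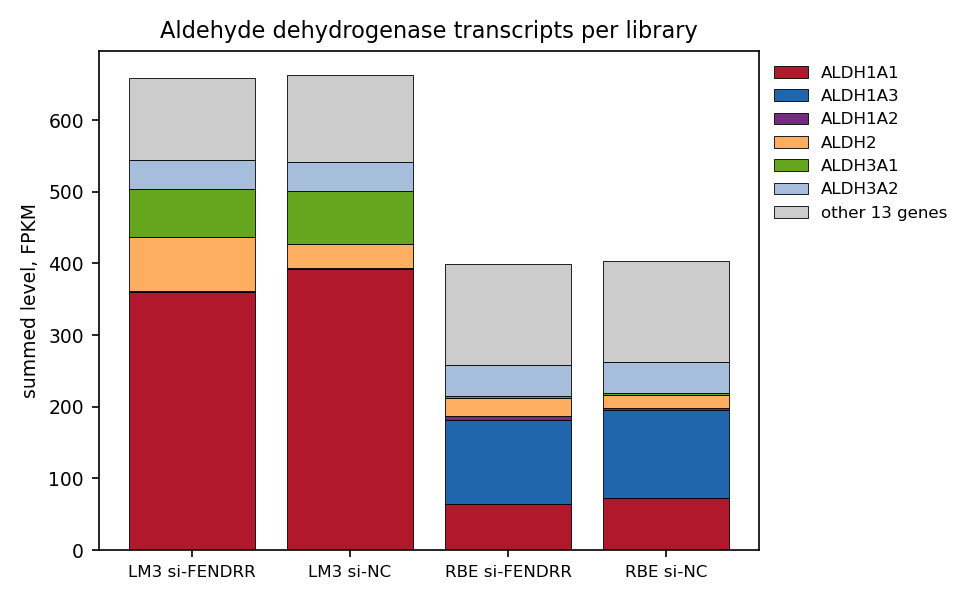
Summed FPKM of the 19 aldehyde dehydrogenase genes in each library, stacked by gene, with the other 13 genes in grey. ALDH1A1 fills the larger part of the LM3 bars, while the RBE bars carry ALDH1A3 at 117.9 and 122.5 FPKM above a smaller share of ALDH1A1.

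A list of genes that take up, convert, bind or sense retinoids, which leaves out the ALDH1A enzymes themselves, was read beside ALDH1A1 and ALDH1A3. Of 17 genes, 13 were tested, 9 were called higher in LM3 (69.2%, against 32.3% of all tested genes) and 2 in RBE (15.4%, against 26.4%). With median-of-ratios scaling the counts were 7 and 3. Of the 13, 2 entered the test through the libraries of a single line. The median log2 difference was 1.11, against 0.09 over all tested genes. STRA6, the membrane receptor for retinol binding protein, was at 34.6 and 38.8 FPKM in the LM3 libraries, against 1.89 and 2.19 in those of RBE (3.63 ± 0.12 SE, adjusted p = 0.00071 by limma). CRABP2, which carries retinoic acid to the nucleus, was at 32.0 and 42.8 FPKM in the LM3 libraries, against 4.51 and 3.91 in those of RBE (2.87 ± 0.19 SE, adjusted p = 0.00182). FABP5, a fatty acid binding protein that can also carry retinoic acid, was lower in LM3, at 54.1 and 54.4 FPKM against 114.7 and 96.7 (-0.94 ± 0.12 SE, adjusted p = 0.00663), and so was the receptor RXRB, at 9.19 and 9.42 against 13.7 and 18.9 FPKM (adjusted p = 0.0213). The retinol dehydrogenase RDH10 was at 33.3 and 35.6 FPKM in the LM3 libraries, against 15.1 and 15.8 in those of RBE (1.10 ± 0.11 SE, adjusted p = 0.004). DHRS3, which turns retinaldehyde back to retinol, was at 82.0 and 87.4 FPKM in the LM3 libraries, against 57.1 and 70.7 in those of RBE (adjusted p = 0.0457). RDH11 was not called (adjusted p = 0.464).

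Other surface markers used for liver cancer stem cells split between the lines as well. Of 15 such genes, 10 were tested, 3 were called higher in LM3 (30.0%, against 32.3% of all tested genes) and 6 in RBE (60.0%, against 26.4%), and the median log2 difference was -0.89, against 0.09 over all tested genes. Of the 10, 6 entered the test through the libraries of a single line. The adhesion receptor ICAM1 was at 118.0 and 109.3 FPKM in the LM3 libraries, against 0.284 and 0.109 in those of RBE (6.58 ± 0.12 SE, adjusted p = 0.000584 by limma). The protein C receptor PROCR was at 108.5 and 110.0 against 1.84 and 1.71 FPKM, and the efflux pump ABCG2 of side population cells was called higher in LM3 as well. The chemokine receptor CXCR4 was listed at 0 in LM3 and was at 4.05 and 4.53 FPKM in RBE (adjusted p = 0.00164). CD47, the signal that restrains phagocytosis, was present in both lines and called lower in LM3 (adjusted p = 0.0278 by limma). It was at 16.1 and 26.3 FPKM in the LM3 libraries, against 28.4 and 35.8 in those of RBE.

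**Figure D3:**
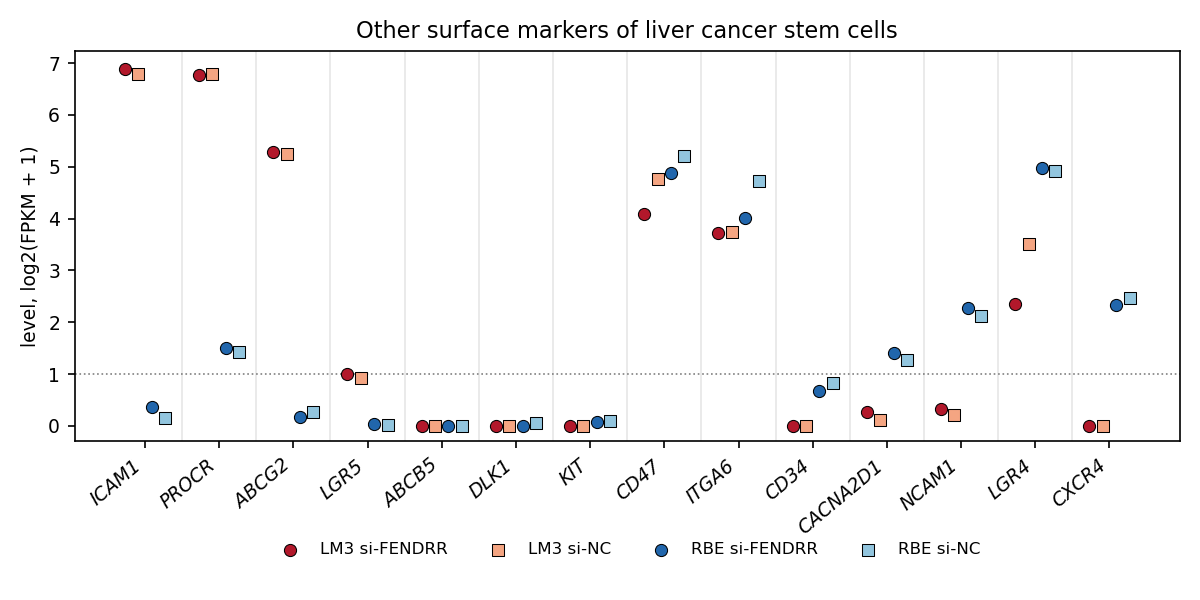
Level of other surface markers as log2(FPKM + 1) on the vertical axis, 1 point per library in the order LM3 si-FENDRR, LM3 si-NC, RBE si-FENDRR and RBE si-NC, with the dotted line at an FPKM of 1. ICAM1, PROCR and ABCG2 at the left are high in LM3 and under 2 FPKM in RBE, and CXCR4 at the right is listed at 0 in LM3 and lies at 4.05 and 4.53 FPKM in RBE.

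Genes of the biliary and progenitor lineage did not all follow SOX9 and EPCAM. Of 13 genes, 11 were tested, 3 were called higher in LM3 and 4 in RBE, shares of 27.3% and 36.4% that lie near those over all tested genes (32.3% and 26.4%). The median log2 difference was -0.20, against 0.09. Of the 11, 1 entered the test through the libraries of a single line. The keratin KRT19, a stem cell marker in hepatocellular carcinoma, was abundant in both lines, at 155.6 and 181.0 FPKM in the LM3 libraries, against 466.9 and 465.9 in those of RBE (-1.47 ± 0.11 SE, adjusted p = 0.0024 by limma). KRT7, a bile duct keratin, was at 7.21 and 6.02 FPKM in the LM3 libraries, against 428.6 and 390.7 in those of RBE (-5.75 ± 0.11 SE, adjusted p = 0.000584). The secreted phosphoprotein SPP1 (osteopontin) was higher in LM3, at 1118 and 908.6 FPKM in the LM3 libraries, against 514.9 and 504.4 in those of RBE (0.98 ± 0.12 SE, adjusted p = 0.00542). The protease MMP7 had close values, at 100.8 and 105.9 FPKM in the LM3 libraries, against 112.1 and 125.0 in those of RBE, and was not called (adjusted p = 0.18). HES1, a target of Notch signalling, was higher in LM3, at 55.9 and 55.1 FPKM against 18.7 and 17.9 (1.55 ± 0.11 SE, adjusted p = 0.00208).

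Of 12 self-renewal factors, 6 (50.0%) stayed under 1 FPKM in all libraries, NANOG and TWIST1 among them with a listed 0 throughout. Of all listed genes 72.6% did, but these include noncoding genes, and the share among protein-coding genes was not counted. Of the 6 tested, 3 were called higher in LM3 (50.0%, against 32.3% of all tested genes) and 0 in RBE (against 26.4%). With median-of-ratios scaling these numbers were 3 and 1. Of the 6, 1 entered the test through the libraries of a single line, SOX2 through those of LM3. SOX2, a pluripotency factor, was at 12.7 and 14.0 FPKM in LM3 and listed at 0 in RBE (adjusted p = 0.000778 by limma). KLF4 was at 49.9 and 43.4 FPKM in the LM3 libraries, against 7.92 and 6.94 in those of RBE (2.50 ± 0.11 SE, adjusted p = 0.00109). The oncogenic factor MYC was at 12.8 and 6.04 FPKM in the LM3 libraries, against 3.07 and 2.30 in those of RBE (1.43 ± 0.21 SE, adjusted p = 0.00878). The receptor NOTCH1 was at 3.52 and 4.02 FPKM in the LM3 libraries, against 4.65 and 3.56 in those of RBE and was not called (adjusted p = 0.667). The Polycomb gene BMI1 was at 24.1 and 24.4 FPKM in the LM3 libraries, against 29.9 and 29.6 in those of RBE and was not called (adjusted p = 0.0945). It shares 1000 exonic bases with the readthrough COMMD3-BMI1, which can take its reads and was at 0.00137 and 1.67 FPKM in LM3, against 0 and 6.15 FPKM in RBE.

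Of 15 genes around CD44, which make or cut hyaluronan, anchor CD44 or act on its splicing, 11 were tested, 3 were called higher in LM3 and 4 in RBE. These shares, 27.3% and 36.4%, lie near the 32.3% and 26.4% over all tested genes, and with median-of-ratios scaling the counts were 2 and 5. Of the 11, 1 entered the test through the libraries of a single line, ESRP2 through those of LM3, so its call follows in part from that filter. The hyaluronan synthase HAS3 was at 2.18 and 2.40 FPKM in the LM3 libraries, against 17.5 and 19.1 in those of RBE (-2.55 ± 0.12 SE, adjusted p = 0.00115 by limma). MSN (moesin), which links CD44 to actin, was at 188.5 and 185.0 FPKM in the LM3 libraries, against 24.7 and 23.3 in those of RBE (2.91 ± 0.10 SE, adjusted p = 0.000797). HYAL1, a hyaluronidase, was also lower in LM3, at 9.37 and 8.37 FPKM in the LM3 libraries, against 25.9 and 27.1 in those of RBE (adjusted p = 0.0029), as was the CD44-cleaving protease MMP14 (adjusted p = 0.0189). HYAL2 (adjusted p = 0.919) and EZR (ezrin, adjusted p = 0.418) were not called. ESRP2, a regulator of CD44 splicing, was at 4.16 and 4.01 FPKM in the LM3 libraries, against 0.618 and 0.716 in those of RBE (adjusted p = 0.00298), and ESRP1 did not exceed 0.085 FPKM.

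Around EPCAM, all 10 partner and protease genes were tested, with 3 called higher in each line (30.0%, near the 32.3% and 26.4% over all tested genes). The counts were 3 in LM3 and 2 in RBE with equal library totals, and 2 and 3 with median-of-ratios scaling. Of the 10, 1 entered the test through the libraries of a single line, ST14 through those of RBE, so its call follows in part from that filter. SPINT2, an inhibitor of surface serine proteases, was at 1.93 and 1.63 FPKM in the LM3 libraries, against 86.7 and 81.2 in those of RBE (-4.93 ± 0.12 SE, adjusted p = 0.000584 by limma). Its target ST14 (matriptase), which cleaves EPCAM, was at 0.406 and 0.582 FPKM in the LM3 libraries, against 10.6 and 10.5 in those of RBE (-2.95 ± 0.14 SE, adjusted p = 0.00112). The tetraspanin TSPAN8 was higher in LM3, at 41.4 and 41.1 FPKM against 1.95 and 2.33 (3.75 ± 0.13 SE, adjusted p = 0.00075). The tetraspanin CD9 was at 143.1 and 185.2 FPKM in the LM3 libraries, against 88.4 and 89.8 in those of RBE (0.86 ± 0.13 SE, adjusted p = 0.0102). CLDN7, the claudin that binds EPCAM, was at 2.41 and 3.29 FPKM in the LM3 libraries, against 2.33 and 2.19 in those of RBE and was not called (adjusted p = 0.284).

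Among 11 paralogs of the members, 6 were tested, and 1 of the 6 entered the test through the libraries of a single line. Of the 6, 1 was called higher in LM3 (16.7%, against 32.3% of all tested genes) and 4 in RBE (66.7%, against 26.4%). PROM2, the paralog of PROM1, was listed at 0 in LM3 and was at 0.392 and 0.152 FPKM in RBE, so neither prominin reached 1 FPKM in any library. Of the aminopeptidases related to ANPEP, the cytosolic RNPEP was at 30.9 and 21.9 FPKM in the LM3 libraries, against 78.7 and 80.7 in those of RBE (-1.58 ± 0.17 SE, adjusted p = 0.00447 by limma), while ERAP2 was higher in LM3, at 5.69 and 4.89 FPKM against 1.12 and 0.834. NPEPPS (adjusted p = 0.017) and ERAP1 (adjusted p = 0.0338) were lower in LM3.

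For each called member, the 2 protein-coding genes with the nearest pattern were sought among 12773, by the distance between mean-centred log2 values over the 4 libraries. With only 2 lines, this measure reflects the size of the difference between them above all. ALDH1A3 was nearest to PMEPA1 (distance of 0.026), at 0.019 and 0.045 FPKM in the LM3 libraries, against 120.9 and 126.4 in those of RBE, and next to CLDN2 (0.302). CD24 was nearest to PLEKHB1 (0.121) and TNC (0.18), and EPCAM to FAM69B (0.125) and BICC1 (0.195). SOX9 was nearest to SATB1 (0.036) and ATL1 (0.063), ANPEP to PHB (0.021) and YRDC (0.022), and ALDH1A1 to NFKBID (0.066) and TSPAN13 (0.074).

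Between the transfections, no marker passed the test or a 2-fold difference. Over both lines, 0 of the 7 tested members and 0 of all tested genes (0%) were called between si-FENDRR and si-NC by limma. At an unadjusted p under 0.05, the numbers were 0 members and 657 of all tested genes, and the smallest adjusted p among the members was 0.959. Within LM3, 2.13% of all tested genes differed at least 2-fold in FPKM + 1 between the libraries, and within RBE 1.75%. Of the 9 members, 0 did so in LM3 and 0 in RBE, and at 1.5-fold the numbers were 0 and 0 as well. Within a line there is 1 library per transfection and no test.

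EPCAM was higher with si-FENDRR in both lines, at 0.318 (si-FENDRR) against 0.236 FPKM (si-NC) in LM3, and at 31.2 against 24.9 FPKM among RBE cells. Over both lines its log2 difference was 0.20 ± 0.14 (SE, adjusted p = 0.959 by limma). ALDH1A1 was lower under si-FENDRR in each line, at 360.6 (si-FENDRR) against 392.1 FPKM (si-NC) in LM3, and at 64.4 against 72.5 FPKM among RBE cells (-0.14 ± 0.10 SE, adjusted p = 0.959). ANPEP was lower in both as well, at 5.56 against 5.98 FPKM and 13.8 against 14.8 (-0.09 ± 0.12 SE, adjusted p = 0.969). None of these differences passed the threshold, and a p that misses it does not show that the levels were the same. On the log2(FPKM + 1) scale EPCAM differed the most of the members in RBE (0.32, against -0.21 for PROM1), but with a pseudocount of 0.1 PROM1 did (-0.55, against 0.33 for EPCAM). CD24 was at 95.0 FPKM (si-FENDRR) against 111.8 (si-NC) in RBE and nearly equal in LM3, and PROM1 and ALDH1A3 were lower with si-FENDRR in RBE and listed at 0 in LM3. SOX9 and CD44 went opposite ways, lower with si-FENDRR in LM3 and higher in RBE, and the difference between the lines was not tested. Of the 7 tested members, 1 was higher in both lines (14.3%) and 2 lower in both (28.6%), where the shares were 26.9% and 21.8% over all tested genes. On the log2 scale the median of the tested members was -0.05 in LM3 cells and -0.06 in RBE cells, against 0 and 0.02 over all tested genes.

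**Figure D4:**
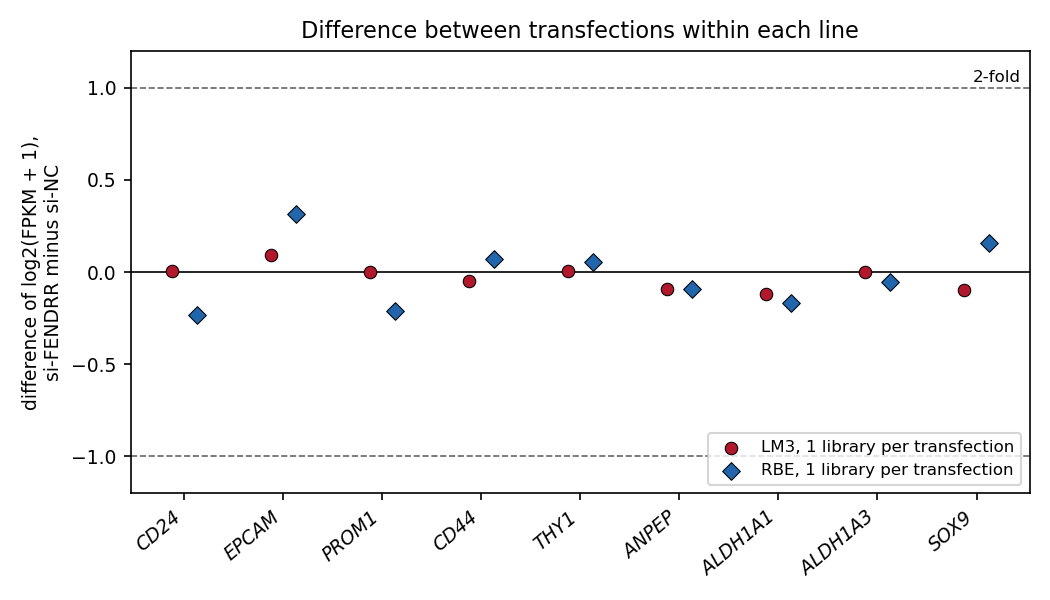
Difference of log2(FPKM + 1) between si-FENDRR and si-NC for each marker, with circles for LM3 and diamonds for RBE, each from 1 library per transfection. The dashed lines mark 2-fold, and all points lie well inside them, EPCAM in RBE reaching 0.32.

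Of the 94 tested genes of the companion lists, 5 differed at least 2-fold between the transfections in LM3 (5.32%, against 2.13% of all tested genes) and 0 in RBE (against 1.75%). LGR4, a receptor for R-spondins, was at 4.14 FPKM (si-FENDRR) against 10.3 (si-NC) in LM3, and at 30.4 against 29.3 FPKM among RBE cells. FOXA2, a pioneer factor of liver development, was at 9.0 (si-FENDRR) against 23.4 FPKM (si-NC) in LM3, and at 16.1 against 15.3 FPKM among RBE cells. ALDH2, the mitochondrial acetaldehyde dehydrogenase, was at 75.2 (si-FENDRR) against 33.6 FPKM (si-NC) in LM3, and at 25.5 against 18.2 FPKM among RBE cells, and ALDH1L2 at 0.740 against 3.01 FPKM in LM3. The tight junction gene CLDN4 was at 179.3 (si-FENDRR) against 0.515 FPKM (si-NC) in LM3, and at 50.8 against 66.7 FPKM among RBE cells. ALDH2 shares 680 and FOXA2 shares 70 exonic bases with an overlapping model on the same strand, and these models did not exceed 0.338 FPKM.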

How the data were processed

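The submitters' processing notes name FastQC, HISAT2 and hg38. The deposited values are FPKM, per the file headers, 1 column per library. Which program, annotation and strand setting produced them is not given in the labels or headers. The single-library files hold the same values as the table of all libraries. Of 58174 gene identifiers, 57836 are in GENCODE release 29, used for transcripts, exons and overlaps on either strand.

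The deposited values were transformed to log2(FPKM + 1) and fitted with limma 3.58.1 in R 4.3.3, using a mean-dependent prior variance, over 15930 genes at 1 FPKM or more in any library. Terms for cell line and transfection left 1 residual degree of freedom. P-values were adjusted by Benjamini-Hochberg over all these genes, with a threshold of 0.05. On simulated data the fit was checked only for returning the size of the simulated differences. This does not bear on how often its calls are wrong. The log2(FPKM + 1) scale understates changes of low genes.

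Genes named were all 9 members, their overlapping or antisense partners, the 2 nearest patterns of each called member, and from each companion list the 4 highest by mean FPKM, up to 2 with the largest difference in each direction and those past 2-fold within a line; for the cell type lists only the ones needed to check the labels are given. Some genes that this rule selects are not reported here, though the counts and medians of their lists include them. CLDN7, ESRP1, PROM2, ALDH1A2, ABCG2, NANOG, TWIST1, CFTR, CD3E, COL1A2 and PDGFRB were named after their values were seen. The members and lists were chosen with earlier results of these data known. Alternatives covered the pseudocount, the filter, the scaling, the model terms and single libraries left out.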

Additional observations from a re-analysis of the deposited data

Results flagged for a closer look

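ALDH4A1, a mitochondrial enzyme of proline breakdown, moved by more than 1.5-fold in FPKM + 1 in opposite directions in the lines. Under si-FENDRR its level was 3.14 FPKM in LM3, against 6.99 FPKM under si-NC (log2 difference -0.95). In RBE the levels were 16.8 FPKM under si-FENDRR and 9.61 FPKM under si-NC (0.746). The difference between the lines was not tested, as each rests on 1 library per transfection. ALDH4A1 shares 1517 exonic bases with the overlapping model AL080251.1, which did not exceed 0.152 FPKM in any library. No group holds enough libraries to look for a single one that stands apart.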

How the results depend on the processing

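The count of members called between the lines was 6 of 7, and stayed at 6 with pseudocounts of 0.1 and 5 and with equal library totals. It was 7 with median-of-ratios scaling and 7 without the transfection term, CD44 being added in each, and 8 of 9 with no filter on low values, where THY1 (adjusted p = 0.0378 by limma) and PROM1 (adjusted p = 0.0343) were added. The fits with a library left out also dropped the transfection term and left 1 library in a line, so only their differences are given. The direction stayed the same for all 7 tested members. The log2 difference between the lines ran from -1.22 to -1.13 for ANPEP and from -0.38 to -0.31 for CD44. Under the scalings, the median log2 difference between the lines over all genes was 0.12 with equal totals and 0.02 with median-of-ratios scaling, against 0.09. Between the transfections, 0 members were called with either pseudocount, with no filter, under both scalings and in the fit without the cell line term (no replicate block). Leaving out a library gave no test of this term. Within a line, 0 passed 2-fold under either pseudocount or scaling. The difference of CD44 over both lines was 0.01, and -0.01 with median-of-ratios scaling, where the cause was not tested. In LM3, CD24 was 0.005 higher with si-FENDRR on the log2 scale and 0.008 lower with equal totals (-0.008). With either RBE library left out, the transfection term rests on LM3 alone, and was -0.10 for SOX9 (0.03 with all libraries), -0.05 for CD44 (0.01), 0.005 for CD24 (-0.11) and 0.09 for EPCAM (0.20). The lines are the only replicates of a transfection, and depth is unknown, so values under 1 FPKM carry no error.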
